A study of Homo sapiens with 6 samples.

Results

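The 10 genes described here encode granule proteins, mediator enzymes and receptors by which eosinophils, basophils and mast cells are known. They were taken by name from a count table of 56638 gene names, and all 10 were found in it. They are CLC, PRG2, PRG3, RNASE2, RNASE3, HDC, CPA3, IL5RA, HPGDS and CCR3. Their levels were compared between HL60 cells in which SKI had been targeted with CRISPR/Cas9 and HL60 cells carrying a CRISPR/Cas9 control, both grown in RPMI with 10% serum. HL60 is an established line of promyelocyte-like cells from a patient with acute myeloid leukaemia, and the SKI protein is a SMAD-binding repressor of transcription. Each group of 3 libraries stood for 1 line, numbered 3 for the knockout and 1 for the control. Since no label calls the replicates separate cultures, their p-values measure a spread between libraries that may be technical, and loss of SKI and other differences between the lines cannot be told apart.

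Eosinophils store cationic proteins in their granules, among them major basic protein and ribonucleases of the RNase A family, and are rich in the crystal-forming galectin encoded by CLC. Interleukin 5 drives their growth through a receptor made of a specific alpha chain and a beta chain shared with the receptors for interleukin 3 and GM-CSF, while mast cells and basophils make histamine and prostaglandin D2. As background, HL60 cells can be induced to take on eosinophil features in culture, and GATA and C/EBP factors act together on eosinophil granule genes.

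Library totals ran from 47930276 to 58553247 counts, and 16340 genes had enough counts to be tested. SKI itself stood at 59.6, 40.7 and 42.0 CPM (counts per 1e6 reads) in knockout libraries 1 to 3, against 63.9, 83.5 and 88.5 CPM in control libraries 1 to 3. The groups did not overlap, and on the log2 scale SKI differed by -0.73 (SE 0.19, edgeR adjusted p = 0.0282). The call ended without knockout replicate 2 (adjusted p = 0.0769), control replicate 2 (0.109) or control replicate 3 (0.136), so the mRNA level is a limited check of the labels. Of 12 genes that mark HL60, 9 were tested, of which 0 rose, 5 fell and 4 missed the threshold, with a median log2 fold change of -0.58. Between 1 and 6 of them passed with 1 library left out: 1 without knockout replicate 1, control replicate 1 or control replicate 3, and 2 without control replicate 2. MPO, the granule myeloperoxidase, was at 4857 ± 3220 CPM in the knockout and 12752 ± 1184 CPM in the control (SD, n = 3 each). ELANE, the gene of neutrophil elastase, had 6 reads in all 6 libraries together.

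The bases before the gene start are shown for the 4 genes of the list whose level differed between the groups. They come from RefSeq (GRCh38.p14, a later build than that of the counts), run 5′ to 3′ on the gene's strand and end at the base before the annotated start. Capitals mark matches, on either strand, to the GATA word AGATAA, whose first letter may also be T and whose last may also be G, to the C/EBP word TTGCNNAA, to the PU.1 word GAGGAA and to the RUNX word TGTGGT, and none of the matches shown overlap.
CLC (chr19:39738030-39738279, minus strand): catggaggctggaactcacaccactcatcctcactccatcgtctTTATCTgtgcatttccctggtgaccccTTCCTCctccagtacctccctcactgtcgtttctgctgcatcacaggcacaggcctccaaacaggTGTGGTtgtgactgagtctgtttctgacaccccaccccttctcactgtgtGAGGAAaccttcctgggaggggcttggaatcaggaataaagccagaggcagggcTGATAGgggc
IL5RA (chr3:3110375-3110624, minus strand): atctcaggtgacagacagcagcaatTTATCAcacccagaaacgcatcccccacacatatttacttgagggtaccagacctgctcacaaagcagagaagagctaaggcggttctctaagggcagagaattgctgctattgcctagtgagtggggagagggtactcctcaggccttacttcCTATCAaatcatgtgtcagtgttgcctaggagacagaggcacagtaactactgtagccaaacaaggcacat
RNASE2 (chr14:20955237-20955486, plus strand): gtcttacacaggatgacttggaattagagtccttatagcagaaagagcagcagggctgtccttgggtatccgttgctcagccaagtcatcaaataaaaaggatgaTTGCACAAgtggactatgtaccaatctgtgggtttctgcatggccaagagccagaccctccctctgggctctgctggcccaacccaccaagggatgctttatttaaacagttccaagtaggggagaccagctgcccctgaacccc
RNASE3 (chr14:20891135-20891384, plus strand): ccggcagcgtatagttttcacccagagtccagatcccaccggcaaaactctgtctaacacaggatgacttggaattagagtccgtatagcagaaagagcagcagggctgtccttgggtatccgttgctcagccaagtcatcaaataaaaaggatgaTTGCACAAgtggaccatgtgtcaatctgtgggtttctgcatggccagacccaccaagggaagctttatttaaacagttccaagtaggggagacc
CLC and IL5RA each held 2 matches to the GATA word and none to the C/EBP word. RNASE2 and RNASE3 each held 1 match to the C/EBP word, 145 and 94 bases before their starts, and none to the GATA word. The GATA word was also in HPGDS, CPA3 and PRG3, and the C/EBP word in CCR3 and CPA3. Of these genes HPGDS was tested and not called, while CPA3, PRG3 and CCR3 had too few counts to be tested. Among the 9 genes of the list for which an upstream sequence was at hand, 5 held a GATA word, against 22.3% of 35116 upstream sequences of the same length, and 4 held the C/EBP word, against 9.05%. The PU.1 word stood in 3 of the 9 and in 23.6% of all sequences, and the RUNX word in 3 and in 11.0%. The palindrome GTCTAGAC, known from SKI and SMAD binding, was in 0 of the 9 and in 0.182% of all. Such matches describe the letters only, and promoter activity was not measured. The upstream sequences of RNASE2 and RNASE3 were 97.0% identical over 199 aligned bases. Their C/EBP matches lie in an identical run of 86 bases, so the count of 4 genes with that word does not hold 4 independent matches.

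Of the 10 genes, 7 passed the filter on low counts. Among these 7, CLC and IL5RA were higher in the knockout, RNASE2 and RNASE3 were lower, and PRG2, HDC and HPGDS did not pass the test. PRG3, CPA3 and CCR3 had too few counts. These 4 calls out of 7 stand beside 11.8% of all tested genes called in either direction, 6.19% higher and 5.63% lower. The groups did not overlap for the same 4 genes, against 32.2% of all tested genes. The median log2 fold change of the 7 was 0.03, and that of all tested genes -0.01. Leaving out single libraries left between 0 and 3 of the calls: 0 without knockout replicate 1 or control replicate 2, and 1 without control replicate 1 or control replicate 3. In bulk RNA, fewer cells of a type and less RNA per cell cannot be told apart.

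**Figure D1:**
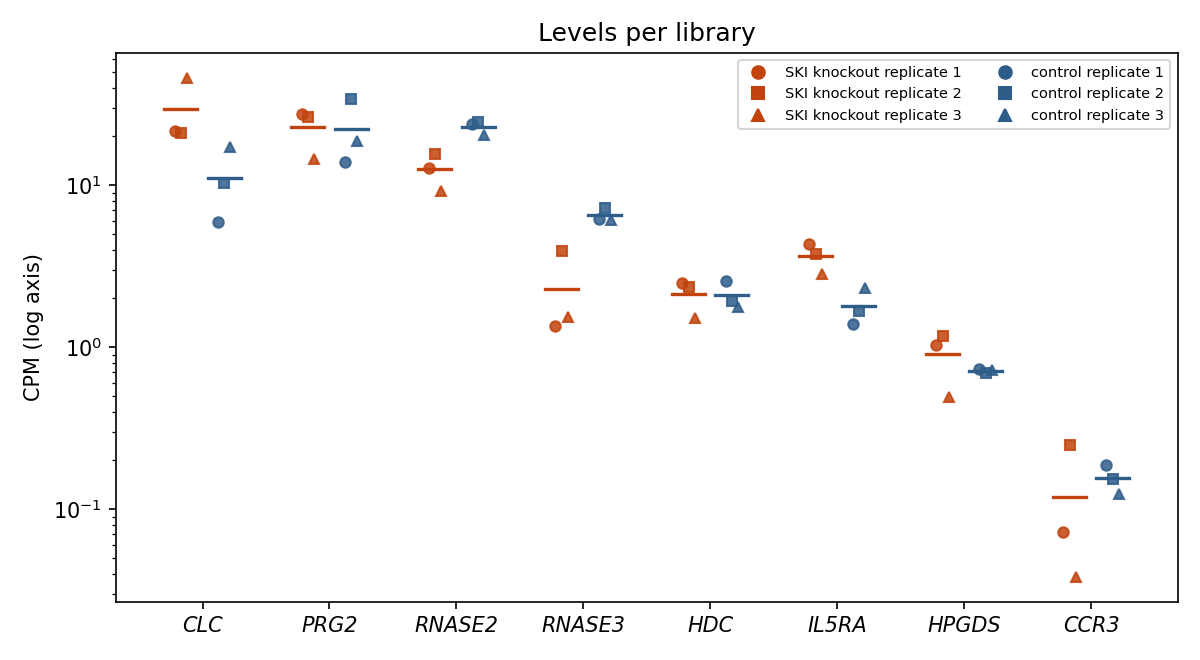
Level in CPM on a log axis of the 8 genes with more than 10 reads in all, for each of the 3 SKI knockout libraries (orange) and the 3 control libraries (blue), with lines at the group means and a marker shape for each replicate number. The knockout libraries lie above all control libraries for CLC and IL5RA and below them for RNASE2 and RNASE3, and the groups overlap for the other genes.

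CLC encodes the Charcot-Leyden crystal protein, galectin-10, which makes up much of the eosinophil's soluble protein. It stood at 21.7, 21.1 and 45.9 CPM in knockout libraries 1 to 3, against 5.92, 10.4 and 17.2 CPM in control libraries 1 to 3. All knockout values lay above all control values, knockout replicate 3 stood far above the other two, and the control libraries were spread 2.90-fold from lowest to highest. The means were 29.6 ± 14.2 CPM in the knockout and 11.1 ± 5.67 CPM in the control (SD, n = 3 each). The difference was 2.65-fold, or 1.41 on the log2 scale (SE 0.38, edgeR adjusted p = 0.0327). The call ended without knockout replicate 1 (log2 1.61, adjusted p = 0.0614), knockout replicate 3 (0.96, 0.0501), control replicate 1 (1.10, 0.0731) or control replicate 2 (1.35, 0.105). DESeq2 did not call CLC (adjusted p = 0.0816). In the authors' deposited table CLC has a log2 fold change of 0.94 and an adjusted p of 0.0851. The control spread of CLC was wide: 97.1% of tested genes had a smaller SD of log2 CPM among control libraries, and 89.4% among knockout libraries. CLC lies on chromosome 19, whose tested genes with an average log2 CPM above 2 had a median log2 fold change of -0.48 over 665 genes. With each gene centred on that chromosome median, the log2 fold change of CLC was 1.89 (adjusted p = 0.0111). Its neighbour LGALS14, a galectin gene of placenta, fell below the filter, with 36 reads in all, and was not tested. These were 8, 9 and 14 reads in knockout libraries 1 to 3, against 2, 0 and 3 in control libraries 1 to 3.

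RNASE2 encodes eosinophil-derived neurotoxin, a ribonuclease with antiviral activity, and RNASE3 encodes eosinophil cationic protein, a ribonuclease toxic to microbes and helminths. RNASE2 stood at 12.8, 15.6 and 9.24 CPM in knockout libraries 1 to 3, against 23.8, 24.6 and 20.5 CPM in control libraries 1 to 3. RNASE3 stood at 1.36, 3.91 and 1.54 CPM in the knockout libraries, against 6.17, 7.25 and 6.13 CPM in the control libraries. For both genes every knockout value was below every control value. The control libraries lay close together, whereas the knockout libraries were spread 1.68-fold for RNASE2 and 2.89-fold for RNASE3. RNASE2 averaged 12.5 ± 3.17 CPM in the knockout and 23.0 ± 2.15 CPM in the control (SD, n = 3 each), a difference of -0.87 on the log2 scale (SE 0.20, edgeR adjusted p = 0.0179). RNASE3 averaged 2.27 ± 1.42 CPM in the knockout and 6.52 ± 0.633 CPM in the control (SD, n = 3 each), a difference of -1.53 on the log2 scale (SE 0.36, adjusted p = 0.0188).

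Both genes passed in DESeq2 (adjusted p = 0.00130 for RNASE2 and 0.000228 for RNASE3) and in limma-voom (0.0160 and 0.00856). The authors' deposited table lists RNASE2 at -0.80 on the log2 scale (adjusted p = 0.00197) and RNASE3 at -1.30 (0.000125). With 1 library left out, RNASE2 lost its call without knockout replicate 1 (adjusted p = 0.0628), control replicate 1 (0.0550), control replicate 2 (0.0723) or control replicate 3 (0.0540), and RNASE3 without knockout replicate 1 (0.0808), control replicate 2 (0.0646) or control replicate 3 (0.0686). Without knockout replicate 2 the log2 fold change of RNASE3 was -2.14. Both genes lie on chromosome 14, next to each other in the gene order of tested genes, and their 50 nearest tested neighbours had a median log2 fold change of -0.40. With each gene centred on its neighbours, RNASE2 was at -0.47 (adjusted p = 0.182) and RNASE3 at -1.13 (adjusted p = 0.0809) on the log2 scale. With the chromosome median of -0.19 removed, RNASE2 was at -0.68 (0.0638) and RNASE3 at -1.33 (0.0427). The part of the neighbourhood in these differences was not tested.

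RNASE2 and RNASE3 are recent paralogs, and reads that match both leave the split of their counts uncertain. Their coding sequences, from GENCODE 29, were 86.8% identical over 477 aligned bases. The longest run that both share has 54 bases, begins with the start codon, and is shown because a read inside it cannot be assigned to either gene.
Shared run of RNASE2 and RNASE3: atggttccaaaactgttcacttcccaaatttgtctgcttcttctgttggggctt
Summed into 1 feature, RNASE2 and RNASE3 stood at 14.2, 19.5 and 10.8 CPM in knockout libraries 1 to 3, against 29.9, 31.9 and 26.7 CPM in control libraries 1 to 3. The log2 fold change of the sum was -0.99 (SE 0.21, adjusted p = 0.0117). RNASE3 had 10.6, 25.1 and 16.7 counts per 100 counts of RNASE2 in knockout libraries 1 to 3, against 26.0, 29.4 and 29.8 in control libraries 1 to 3. The ratio was lower in every knockout library than in every control library, though knockout replicate 2 came close. In an exact two-sided permutation test the p was 0.1, the smallest that 3 against 3 libraries allow (0.15 adjusted over 3 ratios, chosen after the data were examined). Of 12 other genes around the RNase A family, 5 were tested and 7 had no read in any library. RNH1, the cytosolic inhibitor of these ribonucleases, rose to 189.8 ± 32.2 CPM in the knockout, against 118 ± 15.9 CPM in the control (SD, n = 3 each, adjusted p = 0.0244). It lost its call without knockout replicate 1 (adjusted p = 0.0870), control replicate 1 (0.0572), control replicate 2 (0.136) or control replicate 3 (0.0771). RNASE4, RNASE6, RNASE10 and ANG did not pass.

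PRG2 encodes the precursor of major basic protein, the crystalline core of the eosinophil granule, and PRG3 its homolog. PRG2 stood at 27.4, 26.2 and 14.6 CPM in knockout libraries 1 to 3, against 13.9, 33.9 and 18.7 CPM in control libraries 1 to 3. The groups overlapped across nearly their whole range. The means were 22.7 ± 7.10 CPM in the knockout and 22.2 ± 10.4 CPM in the control (SD, n = 3 each), a log2 fold change of 0.03 with a 95% interval from -0.66 to 0.73 (adjusted p = 0.961). The spread among control libraries exceeded that of 95.0% of tested genes. PRG3 had 0 reads in the 3 knockout libraries and 1 read in the control libraries, all in control replicate 2. In knockout replicate 1, for example, 3 reads, the limit that a count of 0 allows, correspond to 0.0542 CPM. The coding sequences of PRG2 and PRG3 were 73.2% identical with a longest shared run of 19 bases. The nearest gene on the other side, SLC43A3, did not pass (log2 0.20, adjusted p = 0.596). Exons of PRG2 overlap those of another gene on the same strand in GENCODE 29, which leaves its counts uncertain.

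IL5RA encodes the alpha chain of the interleukin 5 receptor, which gives the receptor its specificity. It stood at 4.34, 3.77 and 2.82 CPM in knockout libraries 1 to 3, against 1.38, 1.68 and 2.31 CPM in control libraries 1 to 3. Every knockout value was above every control value, and knockout replicate 3 and control replicate 3 were the closest. The means were 3.64 ± 0.766 CPM in the knockout and 1.79 ± 0.473 CPM in the control (SD, n = 3 each), a 2.03-fold difference (log2 1.02, SE 0.28, edgeR adjusted p = 0.0381). Leaving out 1 library ended the call in 5 of 6 cases: the adjusted p was 0.132 without knockout replicate 1, 0.0528 without knockout replicate 2, 0.138 without control replicate 1 and 0.127 without control replicate 2. Leaving out control replicate 3 gave 0.0572. With neighbour centring it was 0.0716. The authors' deposited table lists IL5RA at 0.93 on the log2 scale (adjusted p = 0.00303). TRNT1, the next gene on the chromosome, did not pass (log2 -0.28, adjusted p = 0.341). Exons of IL5RA overlap those of CNTN4-AS1, which had 2 reads in all.

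Of 25 genes of interleukin 5 and interleukin 3 signalling, 23 were tested, of which 3 rose, 2 fell and 18 missed the threshold. The median over the 23 was 0.13 on the log2 scale. With 1 library left out between 3 and 6 passed, 3 of them without control replicate 2 or control replicate 3. CSF2RB, the shared beta chain that pairs with IL5RA, rose 4.87-fold to 1.55 ± 0.341 CPM in the knockout, against 0.315 ± 0.0687 CPM in the control (SD, n = 3 each, edgeR adjusted p = 0.00203). CSF2RB kept its call in each of the 6 fits with 1 library left out. The alpha chains of the related receptors, IL3RA and CSF2RA, did not pass (adjusted p = 0.212 and 0.221). IL3RA was at 0.434, 0.497 and 0.934 CPM in the knockout, against 0.502, 0.204 and 0.282 CPM in the control.

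CCR3, the eotaxin receptor that guides eosinophils into tissue, had 4, 12 and 2 reads in knockout libraries 1 to 3, against 9, 9 and 7 reads in control libraries 1 to 3. The knockout libraries lay on both sides of the control libraries, and no difference was detectable at counts this low. Among 19 other chemokine receptor genes 11 were tested. Of these 2 rose, 2 fell and 7 missed the threshold, and the median on the log2 scale was -0.13. Leaving out knockout replicate 1 left 2 calls among them. CCR1, the nearest neighbour of CCR3, did not pass (log2 -0.28, adjusted p = 0.463). CXCR2, a receptor of neutrophils, rose to 3.81 ± 0.657 CPM in the knockout, against 0.722 ± 0.191 CPM in the control (SD, n = 3 each, adjusted p = 0.000834). CCR2, a receptor of monocytes and basophils, fell to 0.285 ± 0.0795 CPM in the knockout, against 1.90 ± 0.477 CPM in the control (SD, n = 3 each, adjusted p = 0.00103).

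HDC, which makes histamine from histidine, was at 2.49, 2.36 and 1.52 CPM in knockout libraries 1 to 3, against 2.57, 1.94 and 1.76 CPM in control libraries 1 to 3. The groups overlapped, with a log2 fold change of 0.03 and a 95% interval from -0.60 to 0.66 (edgeR adjusted p = 0.966). HPGDS, the haematopoietic prostaglandin D synthase, was at 1.03, 1.18 and 0.495 CPM in the knockout libraries, against 0.732, 0.696 and 0.722 CPM in the control libraries. The control values of HPGDS were nearly equal and the knockout values lay on both sides of them. Its log2 fold change was 0.33, with an interval from -0.47 to 1.12 (adjusted p = 0.604), which leaves room for a change of the size seen for IL5RA. CPA3, the carboxypeptidase of mast cell granules, had 0, 0 and 8 reads in knockout libraries 1 to 3, against 0, 0 and 1 read in control libraries 1 to 3. All 8 knockout reads were in replicate 3.

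Of 26 other genes of histamine, prostanoid and leukotriene metabolism, 17 were tested. Of these 2 rose, 2 fell and 13 missed the threshold, and the median on the log2 scale was 0.26. HNMT, which inactivates histamine by methylation, had 5, 1 and 1 reads in knockout libraries 1 to 3, against 39, 38 and 26 reads in control libraries 1 to 3 (adjusted p = 0.00209). SLC18A2, which loads histamine into granules, had 1 read in all. TBXAS1, thromboxane synthase, rose 5.26-fold to 12.1 ± 3.23 CPM in the knockout, against 2.29 ± 0.493 CPM in the control (SD, n = 3 each, adjusted p = 0.000411). ALOX5AP, which presents arachidonic acid to 5-lipoxygenase, rose 2.31-fold to 101 ± 22.6 CPM, against 43.7 ± 6.75 CPM in the control (SD, n = 3 each, adjusted p = 0.00261). HNMT, TBXAS1 and ALOX5AP kept their calls in each of the 6 fits with 1 library left out. CYSLTR2, a receptor for cysteinyl leukotrienes, fell to 0.0509 ± 0.00839 CPM in the knockout, against 0.318 ± 0.110 CPM in the control (SD, n = 3 each, adjusted p = 0.00879, or 0.0537 without control replicate 2). HNMT and CYSLTR2 passed the filter on low counts only through the control libraries, the group in which they were high.

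**Figure D2:**
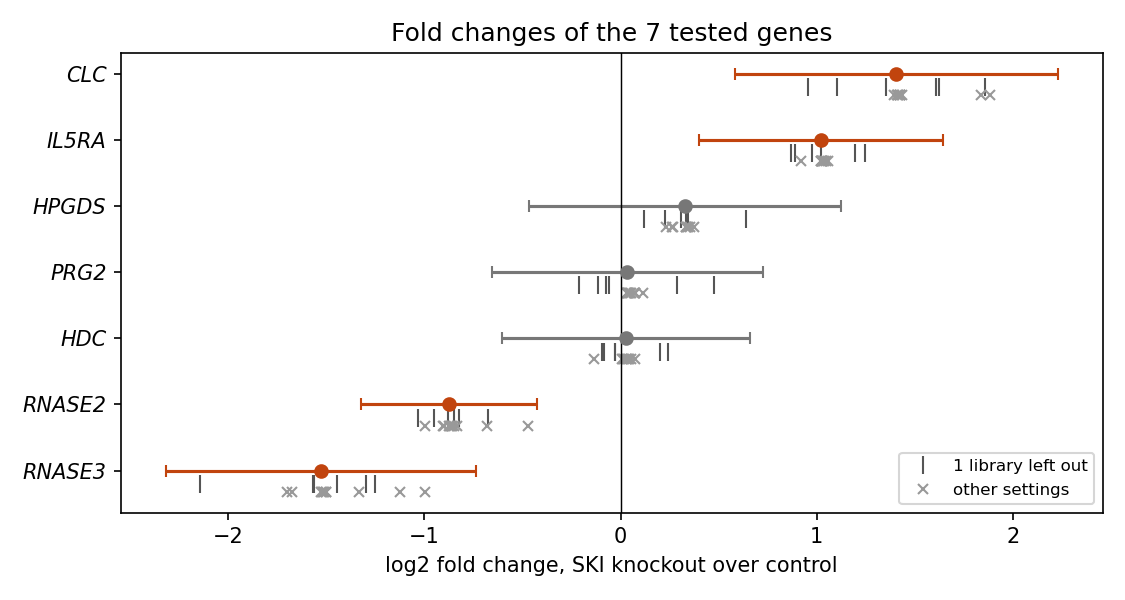
Log2 fold change of knockout over control for the 7 tested genes, with the 95% interval from edgeR (circles and bars, orange where the adjusted p is under 0.05), the values with 1 library left out (ticks) and under the other settings (crosses, which for the ribonuclease pair include their summed counts). CLC and IL5RA stayed above 0 and RNASE2 and RNASE3 below 0 in every setting, while PRG2 and HDC lay on both sides.

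Per length of gene, the order of the 10 genes differed between the groups. In CPM per kilobase the knockout order was CLC at 46.6 ± 22.3, RNASE2 at 16.6 ± 4.20, PRG2 at 12.4 ± 3.86 and RNASE3 at 3.15 ± 1.98, followed by IL5RA at 1.08 ± 0.227, HDC at 0.537 ± 0.133 and HPGDS at 0.427 ± 0.170 (SD, n = 3). In the control RNASE2 stood first at 30.4 ± 2.85 CPM per kilobase, followed by CLC at 17.6 ± 8.93, PRG2 at 12.1 ± 5.68 and RNASE3 at 9.05 ± 0.880, then IL5RA at 0.530 ± 0.140, HDC at 0.528 ± 0.108 and HPGDS at 0.340 ± 0.00890 (SD, n = 3). In the control CLC, PRG2 and RNASE3 all overlapped one another, as did IL5RA and HDC. In the knockout RNASE2 overlapped PRG2, and HDC overlapped HPGDS, while CLC lay above all others. CCR3, CPA3 and PRG3 were below 0.1 CPM per kilobase in every library.

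The counts of the 10 genes together were similar in the groups, while the shares of CLC and RNASE2 in them did not overlap. They summed to 71.2, 74.4 and 76.3 CPM in knockout libraries 1 to 3, against 54.6, 80.6 and 67.5 CPM in control libraries 1 to 3. CLC, PRG2, RNASE2 and RNASE3 held between 88.9% and 93.4% of these counts in the knockout libraries, and between 91.1% and 94.4% in the control libraries. The share of CLC was 30.5%, 28.4% and 60.2% in knockout libraries 1 to 3, against 10.8%, 12.8% and 25.4% in control libraries 1 to 3. The share of RNASE2 was 18.0%, 20.9% and 12.1% in the knockout libraries, against 43.5%, 30.5% and 30.4% in the control libraries. Knockout replicate 3 had the most CLC and the least PRG2, RNASE2, HDC, IL5RA and HPGDS of its group, and control replicate 1 had the least CLC and IL5RA of its own.

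**Figure D3:**
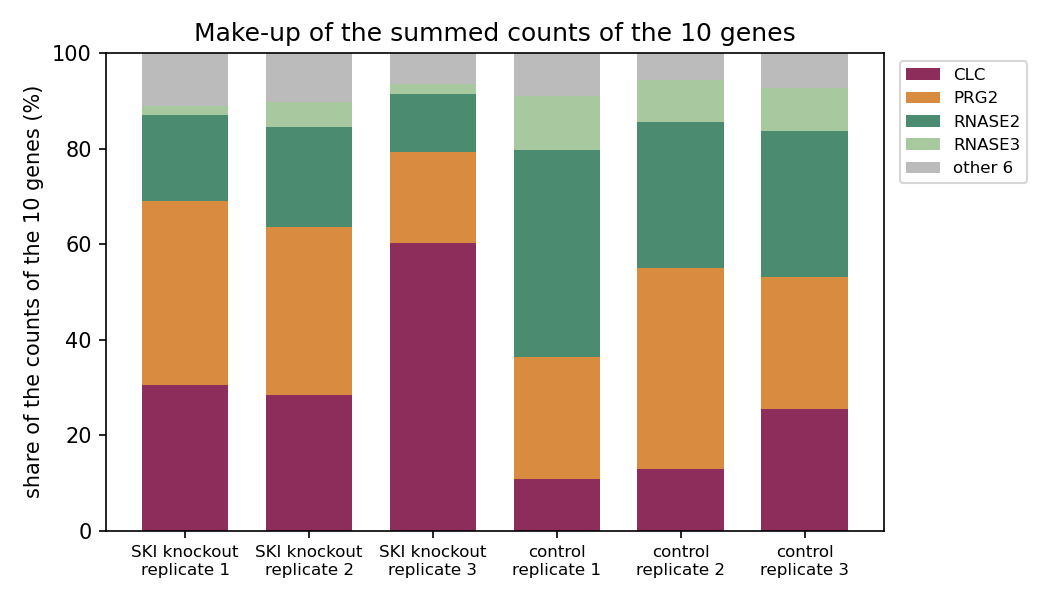
Share in percent of the summed counts of the 10 genes taken by CLC, PRG2, RNASE2, RNASE3 and the other 6 genes, with 1 bar for each library, knockout on the left and control on the right. CLC holds 28.4% to 60.2% of the counts in knockout libraries and 10.8% to 25.4% in control libraries.

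Other genes of eosinophils, basophils and mast cells moved in both directions. Of 30 such genes 17 were tested. Of these 6 rose, 3 fell and 8 missed the threshold, and the median on the log2 scale was 0.94. With 1 library left out, between 5 and 8 of them passed: 5 without knockout replicate 1 or control replicate 3. SIGLEC8, an inhibitory receptor of eosinophils and mast cells, was at 0.542, 1.12 and 0.820 CPM in knockout libraries 1 to 3, against 0.0837, 0.0679 and 0.0528 CPM in control libraries 1 to 3 (edgeR adjusted p = 0.00114). EMR1, a receptor that in humans marks eosinophils, rose 4.71-fold to 2.66 ± 0.536 CPM in the knockout, against 0.564 ± 0.109 CPM in the control (SD, n = 3 each, adjusted p = 0.00127). IL18RAP, a chain of the interleukin 18 receptor, rose 3.16-fold (adjusted p = 0.00562). FCER1G, the signalling chain of Fc receptors, rose 3.79-fold to 13.1 ± 7.06 CPM in the knockout, against 3.47 ± 1.31 CPM in the control (SD, n = 3 each, adjusted p = 0.00768, or 0.0563 without control replicate 3).

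The high-affinity IgE receptor's beta chain, MS4A2, had 1, 1 and 0 reads in knockout libraries 1 to 3, against 10, 27 and 15 reads in control libraries 1 to 3 (adjusted p = 0.00370), and its alpha chain FCER1A had 5 reads in all. MS4A3, a granulocyte and basophil membrane protein, fell to 13.3 ± 7.22 CPM in the knockout, against 39.2 ± 9.93 CPM in the control (SD, n = 3 each, adjusted p = 0.0137, or 0.0746 without knockout replicate 1). EPX, the eosinophil peroxidase, and IL1RL1, the interleukin 33 receptor, were chosen after their values were seen. EPX was at 2.26, 8.73 and 1.45 CPM in knockout libraries 1 to 3, against 0.167, 0.967 and 1.18 CPM in control libraries 1 to 3. Most of that difference lay in knockout replicate 2, and knockout replicate 3 was barely above the highest control library. The adjusted p of EPX was 0.0450, and between 0.00495 and 0.156 with 1 library left out: its log2 fold change was 2.40, and 1.27 without knockout replicate 2. Its call ended without knockout replicate 1, knockout replicate 2 or any 1 of the control libraries, in DESeq2 (adjusted p = 0.0898) and in limma-voom (0.0748). IL1RL1 had 10, 9 and 16 reads in the knockout libraries, against 1, 3 and 0 reads in the control libraries (adjusted p = 0.0175). It lost its call without knockout replicate 1 (0.0521), control replicate 1 (0.0542) or control replicate 3 (0.0848). IL1RL1 and SIGLEC8 passed the filter on low counts only through their knockout libraries, and MS4A2 only through its control libraries. Genes low in both groups were not tested, so these calls come from genes admitted by the group in which they were high.

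Several mast cell genes of the same list of 30 had few reads or none, while others named here, such as FCER1G, were well above the filter. Tryptase had 12 reads in all for TPSAB1 and 11 for TPSB2, a near-identical pair whose reads cannot be told apart with certainty, KIT had 4 reads in all, and CMA1, TPSD1, TPSG1 and MRGPRX2 had none. CTSG, the cathepsin G of mast cells and neutrophils, was also chosen after its values were seen, and was at 54.1 ± 18.3 CPM in the knockout, against 99.9 ± 25.0 CPM in the control (SD, n = 3 each, edgeR adjusted p = 0.0454). It lost its call without knockout replicate 1 (adjusted p = 0.123), control replicate 1 (0.143) or control replicate 3 (0.138), and with chromosome (0.121) or neighbour centring (0.239). OLIG2, LTC4S, PTGDR2 and SIGLEC6 did not pass, with log2 fold changes of 0.75, 0.94, 1.06 and 0.94.

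**Figure D4:**
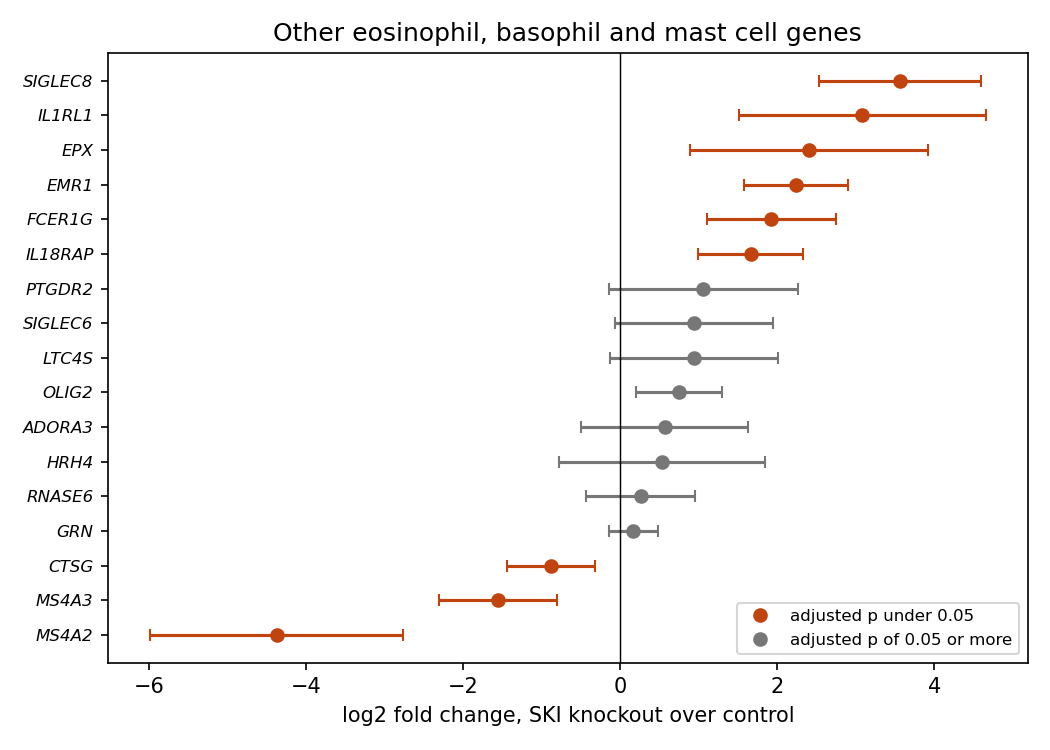
Log2 fold change of knockout over control with the 95% interval for the 17 tested genes among 30 other eosinophil, basophil and mast cell genes, orange where the adjusted p is under 0.05. SIGLEC8, IL1RL1, EPX, EMR1, FCER1G and IL18RAP were higher and CTSG, MS4A3 and MS4A2 lower in the knockout.

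Transcription factors of these lineages also moved both ways. Of 28 such genes 26 were tested. Of these 6 rose, 6 fell and 14 missed the threshold, and the median on the log2 scale was -0.19. GATA2, a factor of mast cells, basophils and eosinophil progenitors, was at 168, 117 and 149 CPM in knockout libraries 1 to 3, against 110, 99.0 and 148 CPM in control libraries 1 to 3, and did not pass (adjusted p = 0.375). GATA1, on which eosinophil development depends in mice, had between 1 and 3 reads in each knockout library and between 1 and 4 reads in each control library. MITF, a regulator of mast cell genes, fell to 0.176 ± 0.0669 CPM in the knockout, against 1.56 ± 0.232 CPM in the control (SD, n = 3 each, edgeR adjusted p = 0.000764). GFI1B, a repressor of transcription found in erythroid and megakaryocytic cells, rose to 1.29 ± 0.330 CPM in the knockout. Its control level was 0.257 ± 0.0879 CPM (SD, n = 3 each, edgeR adjusted p = 0.00313). CEBPA and CEBPE, C/EBP factors of granulocyte development, had log2 fold changes of -1.67 and -1.27 (adjusted p = 0.000823 and 0.00194). RUNX1 fell as well, by 1.43 on the log2 scale. TAL1 had 16, 9 and 14 reads in knockout libraries 1 to 3, against no read in the control libraries. It passed the filter on low counts only through the knockout libraries, the group in which it was high. All 6 of these calls held in each fit with 1 library left out in which the gene was tested. The list's other C/EBP genes, added after their values were seen, did not all fall. CEBPB was at 103 ± 22.0 CPM in the knockout, against 68.7 ± 1.78 CPM in the control (SD, n = 3 each). Its log2 fold change was 0.58 (edgeR adjusted p = 0.0455), and its call was not followed with single libraries left out. CEBPD and CEBPG did not pass (log2 -0.56 and 0.07, adjusted p = 0.122 and 0.801).

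Of 27 genes for granule packaging and storage 26 were tested. Of these 4 rose, 2 fell and 20 missed the threshold, and the median on the log2 scale was 0.00. With 1 library left out between 2 and 9 passed: leaving out knockout replicate 1, control replicate 2 or control replicate 3 left 2, leaving out control replicate 1 left 3, and leaving out knockout replicate 3 gave 9. NDST2, which sulphates the heparin chains of mast cell granules, rose 2.41-fold to 80.6 ± 10.7 CPM in the knockout, against 33.4 ± 4.74 CPM in the control (SD, n = 3 each, adjusted p = 0.00103). LYST, a regulator of granule size, fell to 9.36 ± 3.07 CPM in the knockout, against 25.5 ± 7.01 CPM in the control (SD, n = 3 each, adjusted p = 0.00623). Of 12 galectin genes other than CLC, 5 were tested and 0 passed in edgeR with all 6 libraries or in limma-voom, while 1 had an unadjusted p under 0.05 and 1 passed in DESeq2. In edgeR 1 passed without knockout replicate 2 and 0 without any other single library, and with no filter 3 of 8 passed. Of 15 metallocarboxypeptidase genes other than CPA3, 4 were tested and 0 passed in edgeR with all 6 libraries or in limma-voom. Among them 1 had an unadjusted p under 0.05 and 1 passed in DESeq2. In edgeR 0 passed with any 1 library left out, and 0 of 11 with no filter.

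Marker genes of other blood cells were followed as a measured background. Of 9 monocyte genes, 2 were tested and 1 rose, with summed levels of 18.1 to 29.2 CPM in the knockout libraries and 24.3 to 33.0 CPM in the control libraries, and MRC1 and FCN1 had no read. Of 10 neutrophil genes, 4 were tested: 2 rose, 1 fell, and LCN2 and FCGR3B had no read. Their sum, most of it MPO, was 2641 to 8629 CPM in the knockout libraries and 11659 to 14017 CPM in the control libraries. Of 10 erythroid and megakaryocyte genes 3 were tested and 1 fell, with sums of 7.82 to 12.1 CPM in the knockout and 10.1 to 15.2 CPM in the control. Of 8 lymphoid genes 3 were tested: 1 rose and 1 fell, with sums of 14.2 to 21.2 CPM in the knockout and 13.7 to 18.8 CPM in the control. Of 8 non-blood genes 1 was tested and did not pass, with sums of 4.86 to 10.0 CPM in the knockout and 2.80 to 5.31 CPM in the control. The part of any such cells in the results above was not tested.

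Genes whose levels followed those of the 3 most abundant of the 10 were found by the root mean square difference between log2 CPM profiles over the 6 libraries, each centred on its own mean, among 12856 candidates. For CLC the nearest were CD79A, OR7E38P and RP11-390P2.4, with differences of 0.32, 0.36 and 0.37 against a median of 0.95 over all candidates. CD79A, the B-cell receptor chain, was at 2.76, 2.05 and 5.87 CPM in knockout libraries 1 to 3, against 0.921, 0.967 and 1.39 CPM in control libraries 1 to 3, and so shared the peak in knockout replicate 3. For RNASE2 they were RP11-339B21.14, ZNF324 and MRI1, with differences of 0.09, 0.10 and 0.10 against a median of 0.54. For PRG2 they were TFAP2A, IFRG15 and LINC00504, with differences of 0.16, 0.18 and 0.20 against a median of 0.55. The profile of PRG2 separated the libraries within each group and not the groups. The points share their libraries, so these values describe likeness only.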

How the data were processed

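Libraries of HL60 RNA were stranded, per the labels' protocols. What the authors deposited was a table of raw counts and gene lengths, and a table of size-factor-normalized signal with their own log2 fold changes, test score and p-values. In that table each zero count had been set to 1, checked against the raw counts. The submitters' processing notes name TopHat2, featureCounts, DESeq, DESeq2 and hg19, without the strand setting or read assignment. Columns were matched to libraries by group and replicate number. Here, genes kept by filterByExpr were TMM-scaled and tested with edgeR's quasi-likelihood test (edgeR 4.0.16, limma 3.58.1, R 4.3.3), group as the only term, Benjamini-Hochberg adjusted over 16340 genes, threshold 0.05. Standard errors came from the F statistic, and log2 CPM used a prior count of 2. The 10 genes and the lists were chosen with earlier results of these data known. Named beside them were up to 6 called genes a list by smallest p. Gene order came from GENCODE 29, with a chromosome for 80.5% of tested genes. Alternatives were other scalings and filters, DESeq2 1.42.0, limma-voom, the replicate block, each library left out, centring on chromosome or 50 neighbours, and summed paralogs. The script was tested on simulated data.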

Additional observations from a re-analysis of the deposited data

How the results depend on the processing

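The directions of CLC, IL5RA, RNASE2 and RNASE3 held in each of their 16 or 17 settings, while their calls did not. The 4 calls among the 10 genes became 1 with neighbour centring (1 higher, 0 lower), kept 1 lower gene with chromosome centring, and kept 1 higher gene in DESeq2. With 1 library left out between 0 and 3 passed, 0 to 1 higher and 0 to 2 lower, and between 740 and 2488 genes in all against 1932. Without a filter 2853 genes passed in place of 1932. The cause of these shifts was not tested. Fits with 1 library left out also rest on fewer libraries. The sign of 2 uncalled genes turned: with 1 library left out PRG2 ranged from -0.21 to 0.48 and HDC from -0.0945 to 0.24 on the log2 scale, and HDC was at -0.14 with neighbour centring. With the replicate number as a block the count was 2107 genes and the same 4 of the 10 passed. Deviations of same-numbered libraries from their group means correlated at -0.17, 0.42 and -0.09 over 10568 genes. Those of libraries with different numbers ran from -0.51 to 0.54. With 3 libraries a group, these values cannot decide whether the numbers pair the libraries. Knockout replicate 3 deviated most like control replicate 1 (0.54). PRG3, CPA3 and CCR3 were below the filter with all 6 libraries, and 1 of them passed it without knockout replicate 1. With no filter their adjusted p-values were 0.660, 0.341 and 0.811, and the low counts of all 3 limit what these values can show.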
